A study of Mus musculus with 12 samples.

Results

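The genes described here are 10 that carry out or switch on de novo lipogenesis in the liver. They are the transcription factor genes Srebf1 and Mlxipl, the enzyme genes Acly, Acaca, Acacb, Fasn, Me1 and G6pdx, and Thrsp and Pnpla3. They were chosen by name: every non-control probe whose gene name in the scanner files is one of these symbols was taken, which gave 18 of the 41174 probes. Of these, 14 were measured, meaning well above background in the sample channel on all 3 arrays of at least 1 group. Each of the 10 genes kept at least 1 measured probe and was tested among 14900 genes.

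RNA of male mice, labelled as liver hepatocytes, was hybridised to 12 two-colour arrays. The mice were C57BL6/J wild-type or Cyp1b1 null, ate a diet with 10% or 60% fat from weaning at 3 weeks, and were 14 weeks old at collection. This gives 4 groups of 3 arrays, both genotypes on each diet. Each sample, marked as 3 samples pooled, carried Cy3 and was set against Cy5-labelled RNA pooled from livers of wild-type mice on low fat. No strain name accompanies the null label, so the Cyp1b1 genotype and the strain background cannot be told apart from the labels. Labels do not say that the 3 arrays of a group came from separate animals, so the tests weigh differences only against the spread among these 12 arrays, which may be in part technical. The labelling kit depended on the amount of RNA, and which arrays used which kit was not analysed here.

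De novo lipogenesis turns surplus carbohydrate into fatty acids. Citrate leaves the mitochondrion and is cut to acetyl-CoA, acetyl-CoA is carboxylated to malonyl-CoA, and fatty acid synthase joins these units into palmitate with reducing power from NADPH. In the liver the genes of this route are switched on by insulin through SREBP-1c, the product of Srebf1, and by glucose through ChREBP, the product of Mlxipl. Dietary fat, above all polyunsaturated fat, is known to lower their expression.

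The probes are 60 bases long and their letters stand in the scanner files. Those of the 5 genes on which the results turn are shown, so that the measured piece of each transcript can be looked up. The whole probe is given for the tested probes of Me1 and Acacb, and the first 30 bases for the second Me1 probe, for both Fasn probes, for G6pdx and for the tested Mlxipl probe.
Me1 A_51_P186601: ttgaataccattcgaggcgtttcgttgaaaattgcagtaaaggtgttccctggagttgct
Me1 A_51_P266861: attaatttactggacacgttgataatggca
Acacb A_51_P239236: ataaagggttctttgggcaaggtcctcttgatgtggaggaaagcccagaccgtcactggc
Fasn A_51_P321126: gcttgggttttgacttttctgcagctgtca
Fasn A_52_P100252: attggtagggtacaaaggtgttcagaggat
G6pdx A_51_P187082: caccagatggaagagacctcatgctgccta
Mlxipl A_51_P456466: atgtcggtctgtttcctcacaacttcctgc

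The 4 motifs below were searched on both strands in the 250 bases before each start that RefSeq annotates on GRCm38.p6, since several of these genes had lower means together on the high-fat diet. They were CACGTG, an E-box; CCAAT, bound by NF-Y; GGGCGG, a GC box; and TCACNCCAC, written after the sterol response element. The 10 genes have 14 such windows. CCAAT stood in 8 of the 14 windows, from 7 of the 10 genes, and in 33.8% of all 32851 windows. GGGCGG stood in 7 of the 14 windows, from 6 genes, and in 32.7% of all windows. CACGTG stood in a window of 1 gene, Mlxipl, against 6.02% of all windows, and TCACNCCAC also only in one of Mlxipl, against 1.05%. Genes with several windows have more chances of a match than single windows, so these shares are descriptions. The 100 bases richest in matches are shown for Fasn and Pnpla3 with the motifs in capitals. In the Fasn stretch a CCAAT and its reverse complement overlap.
Fasn, chr11:120824548-120824647, minus strand: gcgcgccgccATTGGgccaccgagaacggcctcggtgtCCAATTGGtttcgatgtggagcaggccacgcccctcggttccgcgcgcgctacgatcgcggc
Pnpla3, chr15:84167691-84167790, plus strand: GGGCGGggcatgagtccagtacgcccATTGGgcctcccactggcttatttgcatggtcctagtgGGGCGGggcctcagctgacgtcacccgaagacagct

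All values below are log2 ratios of sample over reference after loess normalisation, so a ratio of 0 is equal normalised signal in both channels. Every sample carried Cy3 and the pool Cy5, so for a single probe 0 need not be the level of the wild-type low-fat pool. The normalisation centres each array, so medians over all genes lie near 0 by construction. Between 18363 and 23428 probes per array had a Cy3 signal well above background. Arrays scanned together moved together: across genes, deviations from the group means correlated with a median of 0.38 where arrays of 2 groups shared a scan and of -0.18 where they did not. For a shared slide the median was 0.46, and -0.098 otherwise. Deviations of the 3 arrays of a group sum to 0, so positive values for some pairs bring negative values for others. Scan and slide largely coincide, and their parts were not separated. Scan 1 held wild-type low-fat and high-fat array 1, null low-fat arrays 2 and 3 and null high-fat arrays 1 and 3, scan 2 held wild-type low-fat and high-fat array 2, null low-fat array 1 and null high-fat array 2, and scan 3 held wild-type low-fat and high-fat array 3. Slides 1 to 3 followed the scans, except that null low-fat arrays 2 and 3 stood alone on slide 4. In every fit with the slide as a block, null low-fat array 1 alone therefore sets the level of its group. All 10 hepatocyte markers were well above background on all 12 arrays, but so were all listed Kupffer cell markers and 5 of 5 bile duct markers, so the RNA was not of hepatocytes alone. The brighter Cyp1b1 probe (A_51_P255456) read -1.11 to 0.15 on wild-type arrays and 0.65 to 1.68 on null arrays, higher in the arrays labelled null. The sources used here do not say whether it lies in the deleted part, so it does not check the labels, and null means labelled null throughout.

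**Figure D1:**
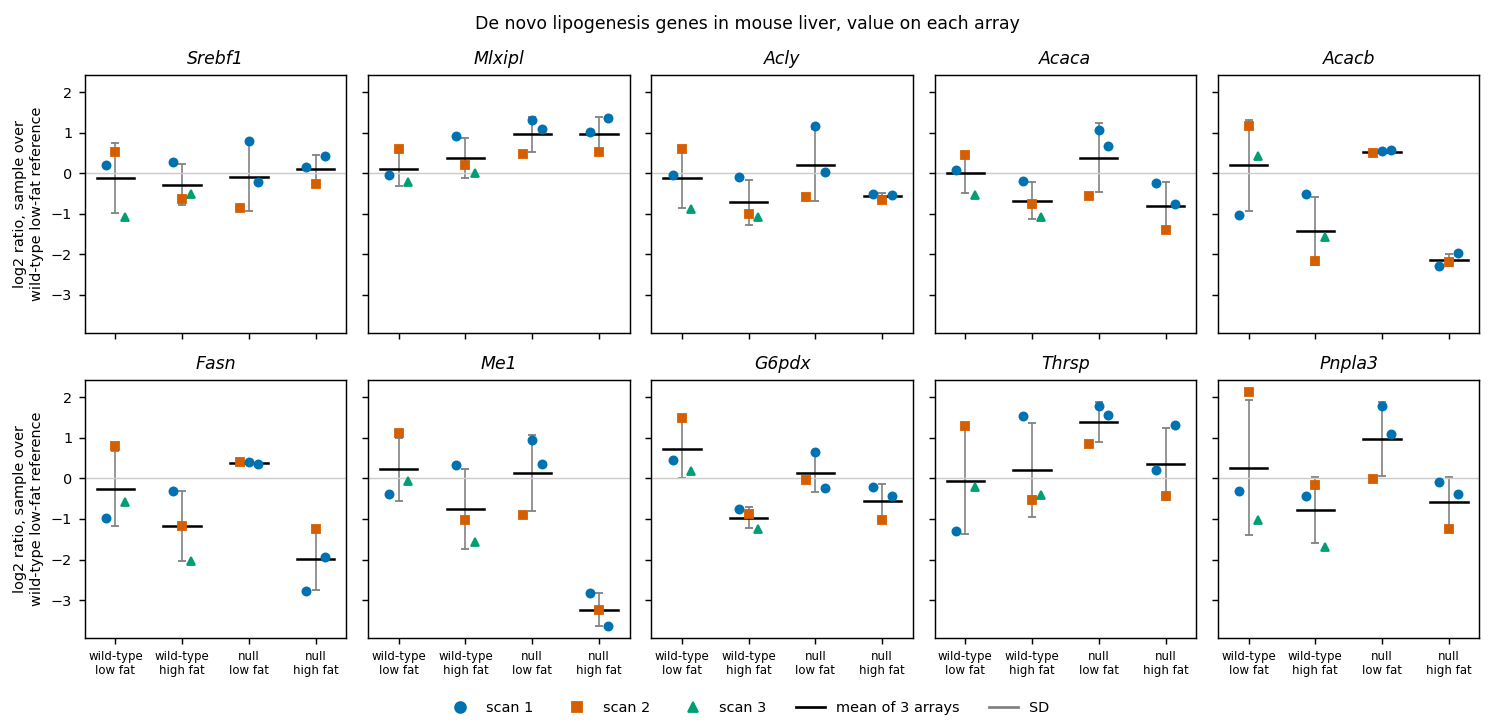
Log2 ratio of sample over the wild-type low-fat reference (vertical axis) for the 10 genes in the 4 groups (horizontal axis), 1 point per array, shaped and coloured by scan, with the mean and SD of 3 arrays. Me1 on the null high-fat arrays lies between -3.65 and -2.82, below every other array, while Srebf1 and Mlxipl show no such step between the diets.

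The regulators are described first. Srebf1 encodes SREBP-1, the factor that carries the insulin signal to the lipogenic enzymes. Its values spanned -1.09 to 0.53 on wild-type low-fat, -0.65 to 0.28 on wild-type high-fat, -0.87 to 0.80 on null low-fat and -0.28 to 0.41 on null high-fat arrays. The ranges of the 4 groups overlapped. In limma the diet difference was -0.17 (95% interval -1.22 to 0.89) in wild-type and 0.19 (-0.86 to 1.24) in null liver, and the genotype difference was 0.028 (-1.02 to 1.08) on low fat and 0.38 (-0.67 to 1.43) on high fat. The probe reads the Srebf1 transcript level and not the processing of the protein.

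Mlxipl encodes ChREBP, the glucose-responsive factor. Its tested probe read -0.036, 0.59 and -0.21 on wild-type low-fat arrays 1 to 3. On high fat the wild-type arrays read 0.92, 0.19 and -1e-04. The null low-fat arrays read 0.48, 1.30 and 1.10, and the null high-fat arrays 1.01, 0.53 and 1.35. The null means were the higher ones on both diets, at 0.96 ± 0.43 (SD, n = 3) and 0.96 ± 0.41 against 0.11 ± 0.42 and 0.37 ± 0.49, but single arrays of the genotypes overlapped. Null minus wild-type was 0.85 ± 0.32 (SE) on low fat, with an adjusted p of 0.60 in limma, and 0.72 ± 0.23 over both diets, with an adjusted p of 0.32. Within scans the low-fat difference was 1.24 in scan 1 and -0.11 in scan 2, so its direction did not hold in each, and with the slide as a block it was 0.34. The high-fat difference was 0.26 and 0.34 in the same scans. A second probe of Mlxipl gave 0.89 ± 0.34 on low fat and 0.27 ± 0.34 on high fat. Between diets the tested probe differed by 0.26 (-0.45 to 0.97) in wild-type and 0.0046 (-0.71 to 0.71) in null liver.

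The enzymes follow in the order of the route. Acly encodes ATP citrate lyase, which makes cytosolic acetyl-CoA. Its means were -0.12 ± 0.74 on wild-type low fat, -0.72 ± 0.55 on wild-type high fat, 0.20 ± 0.88 on null low fat and -0.57 ± 0.073 on null high fat. Both high-fat means lay below both low-fat means, by -0.60 ± 0.45 (SE) in wild-type and -0.78 ± 0.45 in null liver, with overlapping arrays and adjusted p-values of 0.9998 and 1.

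Acaca encodes acetyl-CoA carboxylase 1, the cytosolic enzyme that makes malonyl-CoA for synthesis. It read 0.077, 0.45 and -0.54 on wild-type low-fat, -0.19, -0.77 and -1.09 on wild-type high-fat, -0.57, 1.07 and 0.66 on null low-fat and -0.24, -1.41 and -0.76 on null high-fat arrays. The high-fat arrays were the lower ones on average, yet null low-fat array 1 lay below null high-fat array 1. The diet difference was -1.19 ± 0.44 (SE) in null liver, with an adjusted p of 1, and -0.68 ± 0.44 in wild-type liver. With each slide as a block, where null low-fat array 1 alone sets the level of its group, the null difference was -0.52. With each scan as a block it was -1.19 ± 0.31 (SE). A second measured Acaca probe (A_52_P595124), with sample intensities of 54.6 to 126.2 against 179.1 to 1115 for the tested probe, gave 0.025 ± 0.23 for the same comparison and did not share the pattern.

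Acacb encodes acetyl-CoA carboxylase 2, whose malonyl-CoA at the mitochondrion restrains fatty acid oxidation. The wild-type low-fat arrays read -1.02, 1.17 and 0.43. On high fat the wild-type arrays read -0.52, -2.18 and -1.57. The null low-fat arrays read 0.49, 0.54 and 0.56 and the null high-fat arrays -2.28, -2.18 and -1.98. In null liver the 2 diets stood far apart with little spread, whereas in wild-type liver low-fat array 1 lay below high-fat array 1. The diet difference was -2.68 ± 0.50 (SE) in null liver, a level 6.40-fold lower on high fat, with an adjusted p of 0.46. In wild-type liver it was -1.61 ± 0.50, with an adjusted p of 0.94. Within scans the null difference was -2.68 in scan 1 and -2.67 in scan 2, and the wild-type difference 0.50, -3.34 and -1.999 in scans 1, 2 and 3. Averaged over genotypes it was -2.15 ± 0.35, with an adjusted p of 0.12 that became 0.0098 without wild-type low-fat array 1, where the difference was -2.45, and 0.038 with Agilent's processed signals. In a fit of the null groups alone the adjusted p of the null difference was 0.0049. The null low-fat arrays came this close only after background correction and normalisation: the log2 ratios of their mean signals were -0.98, 2.32 and 2.26 before.

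Fasn encodes fatty acid synthase, the enzyme that builds palmitate. Its tested probe read -0.97, 0.79 and -0.57 on wild-type low-fat arrays, -0.31, -1.17 and -2.03 on wild-type high-fat arrays, 0.40, 0.41 and 0.34 on null low-fat arrays and -2.78, -1.26 and -1.94 on null high-fat arrays. All null high-fat arrays lay below all null low-fat arrays. The null diet difference was -2.38 ± 0.52 (SE), with an adjusted p of 1. The wild-type difference was -0.92 ± 0.52, with an adjusted p of 0.9998. This probe was saturated in the sample channel on 3 arrays, all low fat and 2 of them null, and in the reference channel on 5, so its ratios on those arrays are bounded by the scanner and no fold is given. The unsaturated second probe (A_52_P100252) gave -1.64 ± 0.67 in null and -0.70 ± 0.67 in wild-type liver, also with no overlap of the null groups. Within scans the null difference of the tested probe was -2.74 and -1.66, and the wild-type one 0.66, -1.97 and -1.45.

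Me1 and G6pdx supply NADPH for the route. Me1 encodes cytosolic malic enzyme. It read -0.39, 1.11 and -0.057 on wild-type low-fat, 0.33, -1.01 and -1.57 on wild-type high-fat and -0.89, 0.95 and 0.35 on null low-fat arrays. On the null high-fat arrays it read -2.82, -3.25 and -3.65. Those 3 arrays were the lowest of the 12, with a mean of -3.24 ± 0.41 (SD) against -0.75 ± 0.98 on wild-type high fat, and they overlapped no other group. The sample intensity there was 502.1, 489.8 and 497.4, against 2397 to 13320 on the other 9 arrays.

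The Me1 diet difference in null liver was -3.38 ± 0.57 (SE), or 10.4-fold lower on high fat, with an adjusted p of 0.38. In wild-type liver it was -0.97 ± 0.57, with an adjusted p of 0.9998. Null minus wild-type was -2.49 ± 0.57 on high fat, a level 5.603-fold lower, with an adjusted p of 0.46. On low fat it was -0.083 ± 0.57, and 1.04 and -2.0011 within scans 1 and 2. The difference of these differences, the genotype by diet interaction, was -2.40 ± 0.81, with an adjusted p of 0.9999, and -1.35 with the slide as a block. Within scans 1 and 2 the high-fat genotype difference was -3.57 and -2.23 and the null diet difference -3.89 and -2.36. The wild-type diet difference was 0.72, -2.13 and -1.52 in scans 1 to 3. The second Me1 probe gave -2.78 ± 0.67 for the genotype on high fat and -3.34 ± 0.67 for the diet in null liver, also without overlap. With the sample channel alone the high-fat genotype difference was -3.07 with an adjusted p of 0.026.

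**Figure D2:**
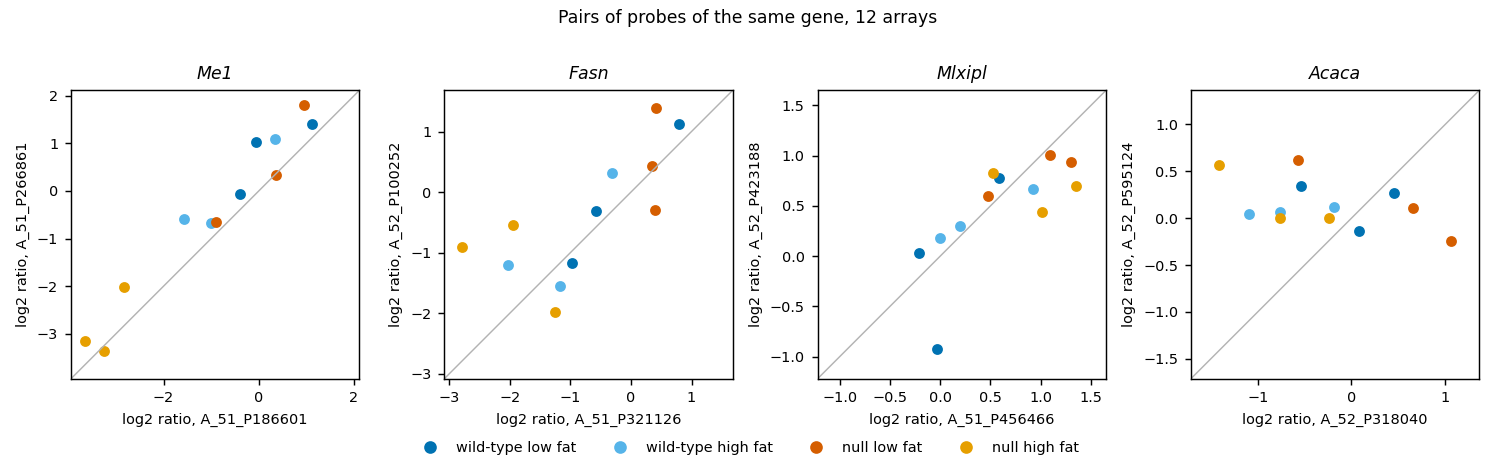
Log2 ratio of a second probe (vertical axis) against that of the tested probe (horizontal axis) for Me1, Fasn, Mlxipl and Acaca, 12 arrays coloured by group, with the line of equality. The null high-fat arrays stand apart on both Me1 probes, and the dim second Acaca probe stays within -0.24 to 0.62 while the tested one spans -1.41 to 1.07.

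G6pdx encodes glucose-6-phosphate dehydrogenase, the entry enzyme of the pentose phosphate pathway. It read 0.46, 1.4999 and 0.18 in wild-type liver on low fat and -0.75, -0.89 and -1.25 on high fat. The null low-fat arrays read -0.039, 0.65 and -0.24 and the null high-fat arrays -0.21, -1.02 and -0.44. Unlike Me1, this gene separated the diets in wild-type liver, and the null groups overlapped. The wild-type diet difference was -1.68 ± 0.35 (SE), 3.20-fold lower on high fat, with an adjusted p of 0.58. It was -1.21, -2.39 and -1.44 within scans 1, 2 and 3. The null difference was -0.68 ± 0.35 with an adjusted p of 1, and the interaction 0.997 ± 0.50 with an adjusted p of 0.9999, so a difference between the genotypes was not shown. Averaged over genotypes the diet difference was -1.18 ± 0.25, with an adjusted p of 0.28, which became 0.041 with Agilent's processed signals and 0.034 with the sample channel alone.

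Thrsp and Pnpla3 are targets of the same factors. Thrsp encodes Spot 14, a small nuclear protein tied to lipogenic induction. Its arrays ranged from -1.30 to 1.30 on wild-type low fat, -0.52 to 1.54 on wild-type high fat, 0.84 to 1.80 on null low fat and -0.43 to 1.32 on null high fat. The group ranges overlapped in each of the 4 pairwise comparisons. The largest of its differences was null minus wild-type on low fat, 1.47 ± 0.71 (SE), with an adjusted p of 0.71. That difference was 2.98 within scan 1 and -0.46 within scan 2.

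Pnpla3 encodes a lipid droplet protein of hepatocytes whose transcript is induced by feeding. It read -0.31, 2.14 and -1.03 on wild-type low-fat, -0.43, -0.17 and -1.70 on wild-type high-fat, -0.011, 1.80 and 1.11 on null low-fat and -0.079, -1.25 and -0.39 on null high-fat arrays. In null liver the 2 diets did not overlap, but -0.011 and -0.079 are close. The null diet difference was -1.54 ± 0.75 (SE), with an adjusted p of 1. The probe was dim: it passed the background limit on all 3 arrays of each low-fat group, on 1 wild-type high-fat array and on no null high-fat array. It was measured through the low-fat groups alone, so its high-fat values have little signal behind them. With Agilent's processed signals the null difference was -6.04, and with the slide as a block it was -0.29.

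**Figure D3:**
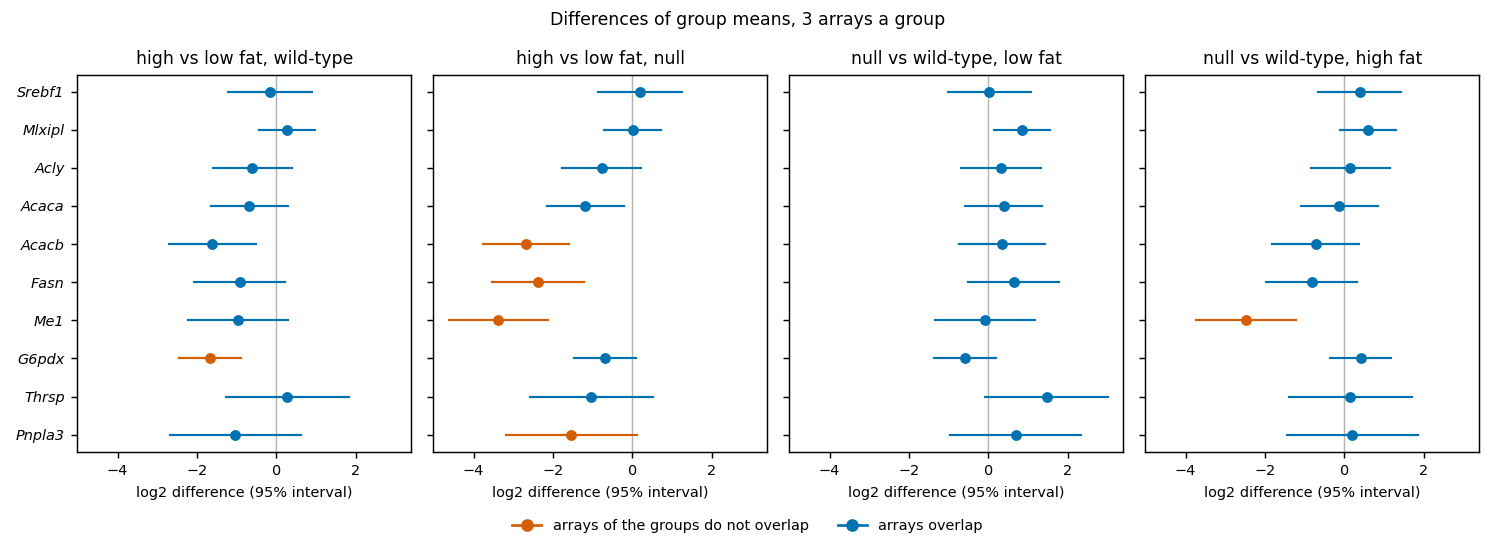
Difference of group means on the log2 scale (horizontal axis) with its 95% interval for the 10 genes (vertical axis) in 4 comparisons of 3 against 3 arrays. In null liver Acacb, Fasn, Me1 and Pnpla3 lie below 0 with arrays that do not overlap, in wild-type liver G6pdx does, and between genotypes only Me1 on high fat does. Pnpla3 was measured through the low-fat groups alone and was well above background on no null high-fat array.

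Counted over the 10 genes, none passed an adjusted p of 0.05 for the diet in null liver, and 8 had a lower mean on high fat, with a median difference of -1.11 against 0.018 for all genes. By p under 0.05 before adjustment, 4 were lower (Acaca, Acacb, Fasn and Me1), against 1.05% of all genes. Arrays did not overlap for Acacb, Fasn and Me1, and for Pnpla3, which entered the test only through the low-fat groups where it was high and so adds nothing to the count. Over all genes 2.53% were lower without overlap. Over the 9 genes well above background on all arrays the median was -1.04. Over all genes 0.00671% passed the adjusted threshold in that comparison. Among 14900 genes ranked from the most negative difference upward, Me1 stood at 2 and Acacb at 4. Within scans the median of the 10 was -1.24 in scan 1 and -1.11 in scan 2. With each slide as a block it was -0.52. Null low-fat arrays 2 and 3 are alone on their slide, so that fit draws the null low-fat level from array 1 alone, the lowest of its group for 8 of the 10 genes.

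In wild-type liver the same 10 genes had a median diet difference of -0.80 against 0.0065 for all genes, with 8 lower and 2 higher. None passed the adjusted threshold, which 0.00671% of all genes did. Before adjustment 2 were lower, Acacb and G6pdx, against 2.21% of all genes, and G6pdx alone had arrays that did not overlap, against 3.69% of all genes. The median within scans was 0.30, -1.89 and -0.61, so the sign held in scans 2 and 3 and not in scan 1. Leaving out wild-type low-fat array 2, the highest of its group in 10 of 10 genes, gave -0.32, and leaving out wild-type high-fat array 3 gave -0.48. Over the 9 genes without Pnpla3 it was -0.68. Averaged over genotypes the median was -1.06, and -0.93 over those 9 genes, of which 5 were lower before adjustment (Acaca, Acacb, Fasn, Me1 and G6pdx), against 2.32% of all genes. Pnpla3 was lower too and is subject to the same limit. After adjustment 0 of 10 passed, against 0.0336% of all genes, with a lowest adjusted p of 0.12.

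Between genotypes the 10 genes did not move as a block. On high fat 6 were higher and 4 lower in arrays labelled null, with a median of 0.15 against 0.0024 for all genes. Me1 was the single gene with p under 0.05, against 1.36% of all genes lower, and the single one whose arrays did not overlap, against 4.09% lower. None passed after adjustment, against 0.0134% of all genes. Of the wild-type high-fat arrays, leaving out 1, 2 or 3 gave medians of 0.41, -0.080 and -0.21. Of the null arrays on that diet, leaving out 1, 2 or 3 gave 0.036, 0.36 and -0.021. Within scans it was -0.38 in scan 1 and -0.045 in scan 2, so it had no stable direction.

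On low fat 8 were higher and 2 lower in arrays labelled null, with a median of 0.36 against -0.0055 for all genes. Mlxipl alone had p under 0.05, against 3.44% of all genes higher, and none had arrays that did not overlap, against 9.32% of all genes in either direction. None passed after adjustment, against 0.0201% of all genes. The median was 1.14 within scan 1, where null low-fat arrays 2 and 3 met wild-type low-fat array 1, and -1.10 within scan 2, where null low-fat array 1 met wild-type low-fat array 2. With the slide as a block, where null low-fat array 1 alone stands for its group, it was -0.63. The low-fat genotype difference therefore had no stable direction across scans. Of the wild-type low-fat arrays, leaving out array 3 gave 0.083 and leaving out array 2 gave 0.75. Of the null low-fat arrays, leaving out array 2 gave 0.16 and leaving out array 1 gave 0.67.

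Over both diets 1 gene was higher in null arrays before adjustment, Mlxipl, against 4.19% of all genes, and 1 lower, Me1, also against 4.19%. None passed after adjustment, against 0.289% of all genes, and with the sample channel alone Me1 did (-1.82, adjusted p = 0.022). In the interaction 8 of 10 estimates were negative, with a median of -0.51 (0.0099 for all genes), and Me1 alone was lower before adjustment, against 0.436% of all genes. None of the 10, and 0% of all genes, passed the adjusted interaction test in limma, so a diet response that differs between the genotypes was not shown for these genes.

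**Figure D4:**
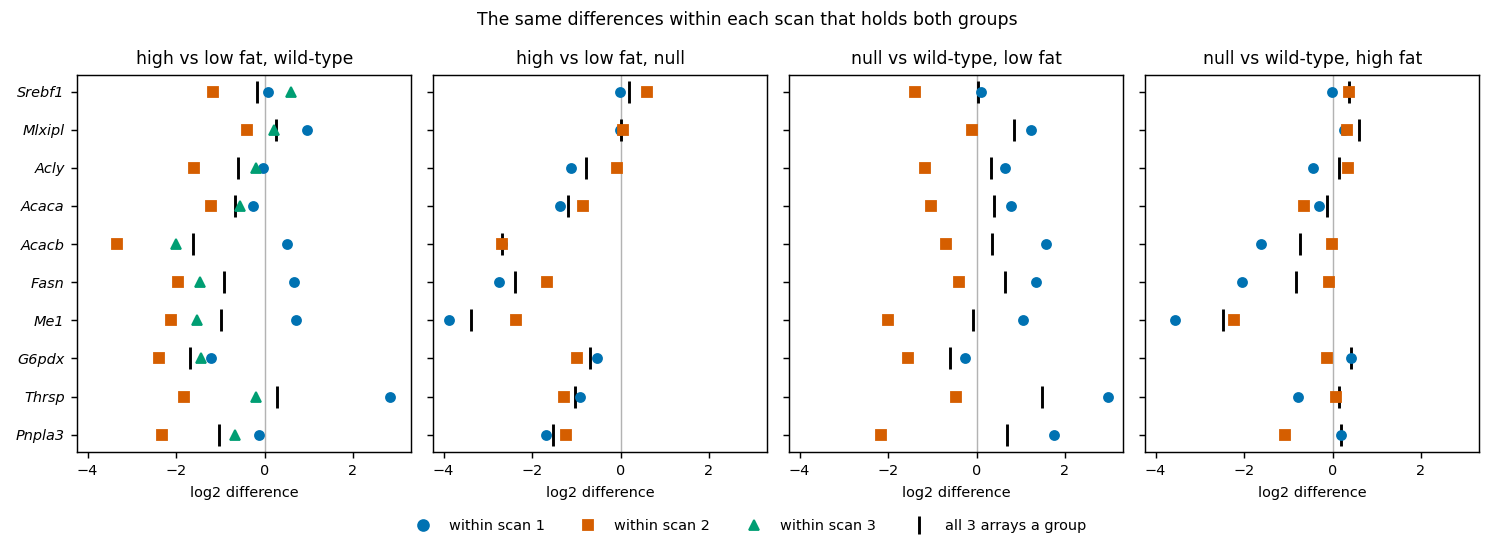
Log2 differences of the 10 genes within each scan that holds both groups (coloured symbols) beside the difference over all arrays (black bar). In null liver the diet difference of Acacb is -2.68 in scan 1 and -2.67 in scan 2, whereas on low fat the genotype difference of most genes is positive in scan 1 and negative in scan 2.

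Within groups the 10 genes tended to be high or low on the same arrays. Wild-type low-fat array 2 was the highest of its group for 10 of 10 genes and wild-type high-fat array 1 for 9. Null low-fat array 2 was the highest for 9, and null low-fat array 1 the lowest for 8. Wild-type high-fat array 3 and null high-fat array 2 were each the lowest for 7. The array medians of the 10 genes ran from -1.17 to 1.01. The medians of all genes, held near 0 by the loess normalisation, stayed within -0.032 and 0.011. They do not show whether other sets of genes moved as much. Adipocyte markers varied too: the median of 4 measured genes of 8 ran from -1.02 to 1.67 on null low-fat and from -1.30 to -0.13 on null high-fat arrays, from -0.20 to 0.68 on wild-type low-fat and from -0.18 to 0.083 on wild-type high-fat arrays. Lep was well above background on none. Null low-fat array 1, the highest for adipocyte markers, was the lowest of its group for most of the 10 genes. Null high-fat array 2, the lowest for adipocyte markers at -1.30, was the lowest of its group for 7. The median diet difference of the 4 measured markers was -1.12 in null liver, with 4 lower. In wild-type liver it was -0.21, with 3 lower and 1 higher. The part of such cells in the diet differences was not tested. In RNA from a mix of cell types, fewer cells of a type and less RNA per cell cannot be told apart.

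Around the route, 69 of 72 genes in 5 lists were measured. In null liver 1 of them fell on high fat after adjustment and none rose, the median was -0.096, and 7 were lower and 0 higher before adjustment, against 1.05% and 0.859% of all genes. The gene that fell was Scd1, which encodes the desaturase that turns newly made stearate into oleate. It read -0.28, 0.74 and 0.31 on null low-fat and -5.82, -4.06 and -4.79 on null high-fat arrays. In wild-type liver it read -0.80, 0.39 and -0.93 on low fat and -1.51, -2.20 and -2.41 on high fat. High fat thus separated from low fat in both genotypes, with the null high-fat arrays lowest. In null liver Scd1 fell by 5.15 ± 0.48 (SE), with an adjusted p of 0.0045, which was 0.051 without null low-fat array 3 and 0.27 with the slide as a block. Over both genotypes it fell by 3.37 ± 0.34, with an adjusted p of 0.0098 and of 0.15 with the slide as a block. With median centring in place of loess both adjusted p-values were 1. Within scans the null difference was -5.83 and -3.78. In wild-type liver it was -1.59 ± 0.48 with an adjusted p of 0.90.

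The lists differed in how many genes lay lower on high fat in null liver. Among 13 genes acting after palmitate, 10 were lower, 1 of them called (Scd1), with a median of -0.44, and Elovl6, the elongase that extends palmitate, differed by -1.60 ± 0.46 (SE, adjusted p = 1). Among 14 genes of carbon and NADPH supply 11 were lower and none was called, with a median of -0.30, and Pgd, the NADPH-forming step after G6pdx, differed by -0.87 ± 0.22. Of 10 measured genes of SREBP processing and cholesterol synthesis 9 were lower, none called, with a median of -0.51, and Insig2, which retains SREBPs in the endoplasmic reticulum, differed by -1.41 ± 0.54. Of 12 ChREBP partners and sugar-response genes 9 were lower, none called and none with p under 0.05, with a median of -0.39. Of 20 measured upstream receptors and kinases 6 were lower and 14 higher, none called, with a median of 0.13. In wild-type liver the medians were -0.51, -0.13, 0.0084, 0.066 and 0.073 in the same order, with 0 of 69 genes called in limma and 4 lower and 2 higher by p before adjustment, against 2.21% and 1.81% of all genes. H6pd, the pentose phosphate dehydrogenase of the endoplasmic reticulum, differed there by -0.54 ± 0.15 (adjusted p = 0.85).

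**Figure D5:**
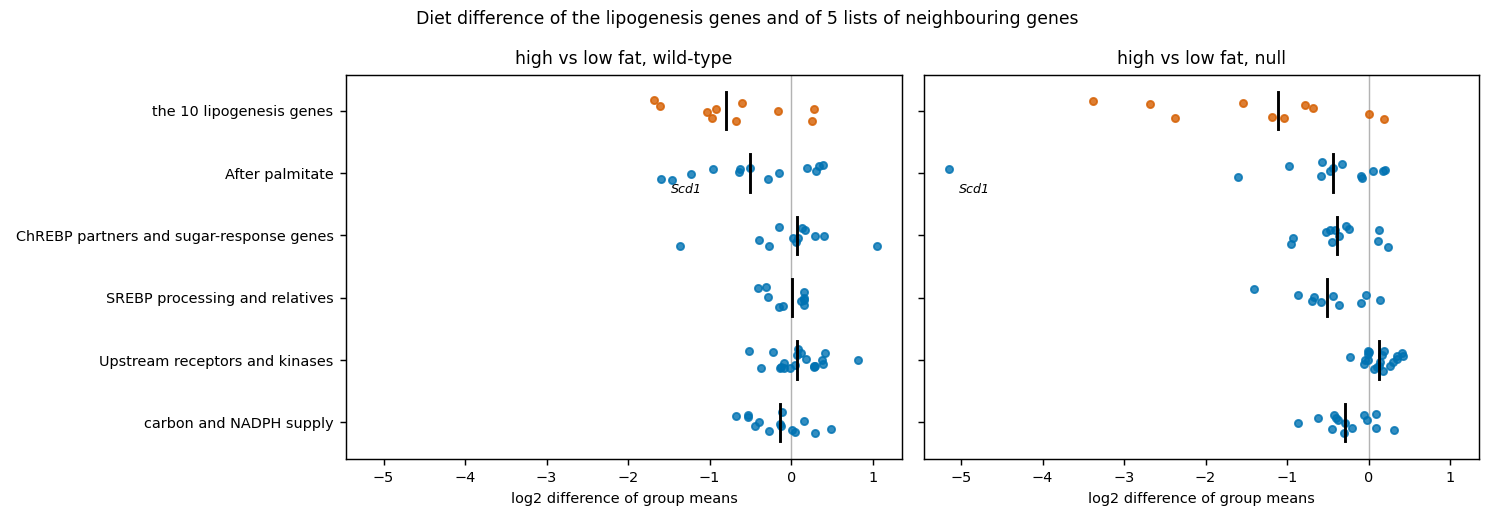
Diet difference on the log2 scale (horizontal axis) of the 10 lipogenesis genes and of the measured genes of 5 lists (vertical axis), 1 point per gene with the median as a black bar, in wild-type and in null liver. Scd1 in null liver, at -5.15, is the lowest point, and upstream receptors and kinases have a median of 0.13 there.

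The authors' deposited table gives log2 values for 3 of these comparisons, which are differences of group means of Agilent's own ratios. For null against wild-type on high fat, the authors' deposited table lists -2.90 and -3.70 for the 2 Me1 probes. For the wild-type diet comparison, the authors' deposited table lists -1.76 for G6pdx, -1.66 for the tested Acacb probe and -1.0014 for the tested Fasn probe. In the authors' deposited table Pnpla3 stands at -3.33 for that comparison. The loess-normalised value of Pnpla3 was -1.04 ± 0.75 (SE) in limma. Over the 10 tested probes and 3 comparisons, 28 of 30 values in the authors' deposited table had the sign of the loess-normalised difference. Opposite signs were found for Pnpla3 between genotypes on high fat, at -0.83 in the authors' deposited table against 0.20 ± 0.75, and for Me1 between genotypes on low fat, at 0.014 against -0.083 ± 0.57.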

How the data were processed

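The deposited scanner files hold spot intensities of both channels, extracted with Agilent Feature Extraction 9.1.3.1 per the file headers. Their log10 ratios of Cy5 over Cy3 were made from processed signals per the file headers. On non-control spots they differed from the log10 ratios of the deposited processed signals by up to 0.48. The authors' deposited table holds log2 values. These equal differences of group means of the scanner files' own log ratios, turned to Cy3 over Cy5, on 43379 spots (within 5e-10). limma is named in the submitters' processing notes; genome build and scanner settings are not given in the sources used here.

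Mean intensities were background-corrected (normexp, offset 50) and loess-normalised within arrays, with no normalisation between arrays, in limma 3.58.1 (R 4.3.3). Control spots and 120 non-uniform spots were left out. Where a gene had several measured probes the brightest was tested. Differences of the 4 group means were tested with lmFit and eBayes, adjusted by Benjamini-Hochberg over 14900 genes, and called at an adjusted p under 0.05. The number of arrays limits precision. All samples carried the same dye, so a constant dye bias drops out of the group differences.

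The 10 genes and the 5 lists were chosen with earlier results of these data known. All 10 are named. Full statistics are given where p was under 0.05 before adjustment or arrays did not overlap, and list genes are named where called or among the 2 smallest p-values of a list. Other signals, normalisations, filters, probe rules, blocks and left-out arrays were tried as alternatives. Replicate numbers pair wild-type low- and high-fat arrays: the same numbers share a slide, and their deviations correlate at 0.33, 0.34 and 0.46. In every other pair of groups at least 1 same-numbered pair correlates below 0.1, although some of those pairs share a slide and correlate at up to 0.57.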

Additional observations from a re-analysis of the deposited data

How the results depend on the processing

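No gene of the 10 passed an adjusted p of 0.05 in the replicate block fit, where Acacb over both genotypes had an adjusted p of 0.22; that fit, and one of the wild-type arrays alone with the block (added after seeing the data; 0.78 for G6pdx, no gene called), changed no call among the 10. The number of the 10 past the threshold was 0 in all 7 comparisons as reported. For the diet over both genotypes it was 2 with Agilent's processed signals, 1 with the sample channel alone, and 0 to 1 with 1 array left out. It was 1 with the sample channel alone for the genotype on high fat and over both diets, and 1 with only the null groups in the fit for the diet in null liver. The median difference with the slide as a block was -0.63 for the low-fat genotype and -0.52 for the null diet. In that fit the null low-fat level rests on array 1 alone. With 1 array left out the medians ran from 0.083 to 0.75 for the low-fat genotype, -0.21 to 0.41 for the high-fat genotype, -1.06 to -0.32 for the wild-type diet and -1.49 to -0.81 for the null diet. Pairs of gene and comparison whose arrays did not overlap numbered 6 as reported, 2 with median centring and 10 with the sample channel alone. The 6 include Pnpla3 in null liver, which entered through the low-fat groups alone and adds nothing to the count. As reported, 9.32% of all genes did not overlap in either direction for the low-fat genotype, and 4.09% were lower for the high-fat genotype. For the diet 3.69% were lower in wild-type and 2.53% in null liver. Such shares are not given for the other settings. Member differences with p under 0.05 or non-overlapping arrays kept their sign in the fits with other signals, normalisations, filters, blocks or left-out arrays, but within single scans the Mlxipl low-fat genotype difference (-0.11 in scan 2) and the wild-type Acacb diet difference (0.50 in scan 1) did not. Restricting the medians to the 9 genes well above background on all arrays, added after seeing the data, moved none of the 4 by more than the spread between arrays. Scd1 lost its call with the slide as a block (-4.18 in null liver, -2.89 over both genotypes) and with median centring (-5.30 and -3.32). Counts over all genes moved widely: 1 to 264 for the genotype over both diets (43 as reported), 0 to 38 for the low-fat genotype (3), 0 to 37 for the high-fat genotype (2), 0 to 25 for the diet over both genotypes (5), 0 to 5 for the wild-type diet (1) and 0 to 3 for the null diet (1). The causes were not tested. Signal limits Pnpla3, which was not well above background on 5 of 6 high-fat arrays, and the tested Fasn probe, which was saturated on some.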

Other observations

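Among the genes around the route, Fgf21, a hepatic hormone gene responsive to ChREBP and PPARα, was low in arrays labelled null on both diets. It read -0.45, -2.15 and -0.82 on wild-type low-fat and -3.65, -2.61 and -2.12 on null low-fat arrays, and -2.66, -2.56 and -2.30 on wild-type high-fat against -3.49, -3.26 and -4.40 on null high-fat arrays. The high-fat arrays of the genotypes did not overlap, where 4.09% of all genes were lower without overlap. On low fat null array 3 lay just above wild-type array 2. Null minus wild-type was -1.43 ± 0.34 (SE) over both diets, with an adjusted p of 0.16 in limma. G6pc, the glucose-6-phosphatase gene of glucose release, had null low-fat arrays at 0.61, 1.94 and 1.34, all above the wild-type low-fat arrays at 0.58, 0.28 and -0.16, with a difference of 1.06 ± 0.39 and an adjusted p of 0.57. Fbxw7, whose product marks nuclear SREBPs for degradation, differed by -0.57 ± 0.18 on low fat, with arrays that did not overlap and an adjusted p of 0.50. On low fat 9.32% of all genes had genotypes that did not overlap, in either direction. Of the lists, Elovl5, Slc2a2, Mlx, Rxra, Akt2 and Idh1 did not overlap there either, and the rest of the 69 measured genes did. The nearest G6pc arrays, at 0.61 and 0.58, are close. So are those of Slc2a2, at 0.5815 on null low-fat array 1 and 0.5799 on wild-type low-fat array 2. Of the 69 genes around the route none passed the adjusted threshold of limma in a genotype comparison. Before adjustment 5 were higher and 3 lower on low fat, where 3.44% of all genes were higher and 3.77% lower. On high fat 0 were higher and 3 lower, where 1.22% of all genes were higher and 1.36% lower.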
